A study of Homo sapiens with 6 samples.

Results

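The aminoacyl-tRNA synthetases described here are 36 genes, taken by symbol from a fixed list of 20 cytosolic and 16 mitochondrial enzymes, the mitochondrial ones being those whose symbol ends in 2. All 36 were found among the 19421 genes that share a common scale in the table, under older symbols (AARS for today's AARS1, for example). RNA was sequenced from A431, a human squamous carcinoma cell line known for amplified EGFR, cultured in DMEM with FBS. The groups were 3 samples with a control shRNA (shCONTROL) and 3 samples with an shRNA against ARID1A (shARID1A), which encodes a DNA-binding subunit of BAF, a chromatin remodelling complex of the SWI/SNF family. How many shRNAs or cell clones were used, and whether replicates came from separate cultures, is not stated in the labels. The p-values therefore measure only the spread among these 6 samples, and that spread may be technical.

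Each synthetase joins an amino acid to its tRNA, the step that sets the genetic code, and cells need a set for the cytosol and a set for mitochondria. GARS and KARS serve both compartments from a single gene, and EPRS carries glutamyl- and prolyl-tRNA synthetase in one chain. In mammalian cells several cytosolic enzymes sit together in the multi-synthetase complex, and the transcription factor ATF4 raises many cytosolic synthetase genes, along with amino acid synthesis and transport genes, when amino acids are short or the endoplasmic reticulum is stressed. ATF4 binds, together with C/EBP proteins, an element known as the C/EBP-ATF response element.

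That element was searched as TGATGNAA, on both strands, in the RefSeq promoter windows of GRCh38.p14, which run from 250 bases before to 50 bases after the start of each gene. A window was at hand for 30 of the 36 members, and 7 held a match. The 30 bases around each match are printed on the strand of the gene with the match in capitals, because the element is the one ATF4 is known to bind and lies at a similar place in several of the genes. The first 6 are cytosolic and the last is mitochondrial.
AARS, chr16:70289675-70289704, minus strand: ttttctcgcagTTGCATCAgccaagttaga
CARS, chr11:3057407-3057436, minus strand: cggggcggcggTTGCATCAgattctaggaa
IARS, chr9:92293692-92293721, minus strand: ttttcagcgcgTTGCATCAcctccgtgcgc
MARS, chr12:57488053-57488082, plus strand: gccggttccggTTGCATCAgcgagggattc
NARS, chr18:57621804-57621833, minus strand: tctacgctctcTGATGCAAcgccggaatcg
TARS, chr5:33440956-33440985, plus strand: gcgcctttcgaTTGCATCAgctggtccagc
YARS2, chr12:32756076-32756105, minus strand: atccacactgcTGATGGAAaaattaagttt

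The 6 cytosolic matches were all the same 8 bases, TGATGCAA, read on the strand of the gene in NARS and on the opposite strand in AARS, CARS, IARS, MARS and TARS. Counted from the gene start, the match began at -2 in CARS, -4 in MARS and -13 in IARS, and at 3 in TARS and 15 in NARS, inside the transcribed part. The AARS match lay farther out, at -187. A match was found in 6 of 16 cytosolic windows (37.5%) and in 1 of 14 mitochondrial windows (7.14%), against 1.66% of the windows of all tested genes and 3.67% of all promoter windows. The E-box CACGTG, the element of MYC and its relatives, was found in 1 cytosolic window (IARS) and in 3 mitochondrial windows (CARS2, EARS2 and MARS2), against 10.3% of the windows of tested genes. A match is a description of letters and does not show that a factor binds there.

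**Figure D1:**
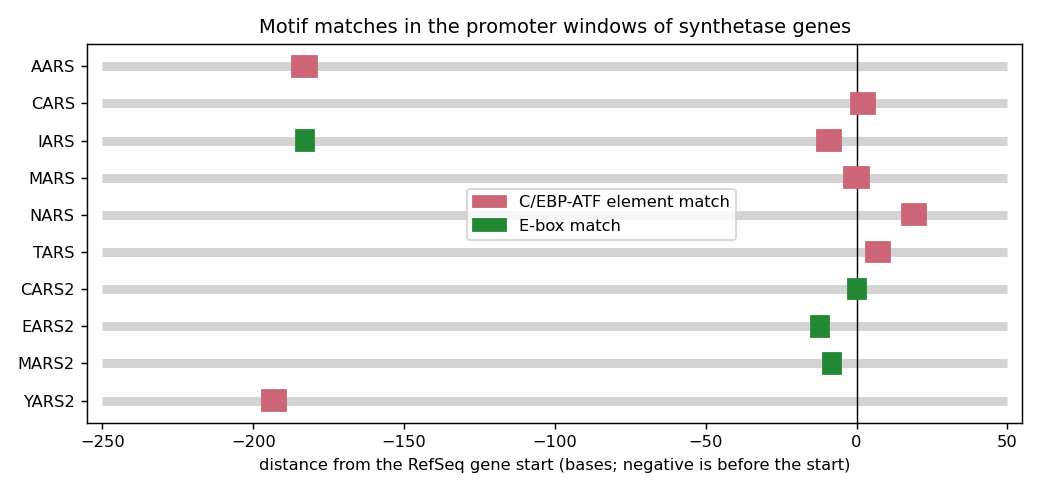
Position of the matches in the promoter windows of the 10 synthetase genes with a match, as the distance in bases from the RefSeq gene start (grey bars: the window searched; red: C/EBP-ATF element; green: E-box). In CARS, IARS, MARS, NARS and TARS the C/EBP-ATF element lies close to the start, while in AARS and YARS2 it lies farther upstream.

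Depth and labels were checked first. Assigned reads, as recovered from the steps of the FPKM values, numbered 31658040 to 36453744 per sample. ARID1A stood at 22.8, 22.8 and 23.8 FPKM across the controls and at 6.70, 7.62 and 7.31 FPKM across the knockdown, so each sample matched its label (log2 fold change -1.55, limma adjusted p = 0.000187). The exact two-sided permutation test of these 6 values gave p = 0.1, the smallest that 3 samples against 3 allow. Of 8 squamous epithelial markers, 7 had a mean of at least 1 FPKM, and of these 2 fell and 0 rose. Over all genes tested 10.9% were called lower and 5.85% higher. With all 6 samples, 4 of the 7 had a log2 fold change above 0, none of them called, so the list did not move in one direction. TP63, a transcription factor of basal squamous cells, fell from 47.5 ± 0.342 to 34.3 ± 2.25 FPKM (limma adjusted p = 0.0106), and the basal keratin KRT5 fell from 72.9 ± 20.5 to 45.2 ± 0.588 FPKM (limma adjusted p = 0.0351). Its keratin partner KRT14 lay between 0.0706 and 0.847 FPKM. The 8 markers summed to 1394 to 1795 FPKM in controls and 1261 to 1744 FPKM after knockdown. Markers of other cell types stayed below 1 FPKM in every sample for 4 of 6 fibroblast genes, 4 of 5 immune genes and 3 of 3 endothelial genes. The exceptions were COL1A1 at 2.25 to 3.13 FPKM, CD68 at 8.99 to 15.8 FPKM and LUM, which rose from 4.64 ± 1.16 to 8.77 ± 1.30 FPKM (limma adjusted p = 0.0156). The summed fibroblast list was 6.56 to 8.96 FPKM in controls and 10.3 to 12.5 FPKM after knockdown, and the immune list 12.0 to 16.0 and 9.14 to 15.5 FPKM. The number of squamous markers called lower was 0 without shCONTROL replicate 2 or shARID1A replicate 1, and 1 without shCONTROL replicate 1 or shARID1A replicate 2, and LUM was not called without shCONTROL replicate 1 or 2 or shARID1A replicate 1. Without shARID1A replicate 3, 2 squamous markers were also called higher. Over all genes, lower calls went from 1265 with all samples to 356 without shCONTROL replicate 2 and 514 without shARID1A replicate 1. They numbered 495 without shCONTROL replicate 1 and 1038 without shARID1A replicate 2, and 1116 genes were called higher without shARID1A replicate 3. The part of these marker differences in the synthetase results was not tested. On principal components shARID1A replicate 3 stood apart from the other 2 knockdown samples.

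Levels are given in FPKM, fragments or reads per kilobase of gene length scaled to the reads assigned in a sample. Each fold change is a difference of group means of log2(FPKM + 1), and a gene is called changed at a limma adjusted p below 0.05 over the 11599 genes whose mean reached 1 FPKM. Of the members, 35 passed that filter. VARS2, the mitochondrial valyl-tRNA synthetase, did not, at 0.586 to 0.731 FPKM in the 6 samples. Its level and that of VARS, the cytosolic enzyme, are uncertain. The deposited gene lengths, 26617 bases for VARS and 22404 for VARS2, exceed the whole gene span in RefSeq by a factor of 1.46 and 1.83, which lowers their FPKM. On the log2(FPKM + 1) scale a lowered level also shrinks the fold change, and it bears on whether a gene passes the filter.

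Among the cytosolic enzymes, 7 fell with the ARID1A shRNA, 0 rose and 13 were not called. The 7 were WARS, CARS, AARS, LARS, SARS, EPRS and GARS. The count was 3 without shCONTROL replicate 1 or 2 or shARID1A replicate 1, 6 without shCONTROL replicate 3, 5 without shARID1A replicate 2 and 9 without shARID1A replicate 3. Over all 11599 genes tested, 1265 were lower with all samples, and 495, 356 and 908 without shCONTROL replicates 1, 2 and 3. Without shARID1A replicates 1, 2 and 3 they were 514, 1038 and 2287, so the calls of the whole table moved as well. Among the 15 mitochondrial enzymes tested, 0 were called (limma), 1 had an unadjusted p below 0.05 (HARS2, lower) and 0 were called by voom on the recovered reads. Over all genes tested 16.8% were called, 10.9% lower and 5.85% higher, and 3929 of 11599 had an unadjusted p below 0.05 (2602 lower). The 3 values per group did not overlap in 12 cytosolic enzymes that were lower and 2 that were higher, and in 3 and 1 mitochondrial enzymes, against 38.8% of all genes tested (25.4% lower and 13.4% higher). The median log2 fold change was -0.24 for the cytosolic and -0.06 for the mitochondrial enzymes, against -0.08 for all genes tested. After upper quartile scaling these medians were -0.16, 0.0044 and -0.01, and after quantile normalization -0.26, 0.04 and -0.0031, so the mitochondrial median turned sign. The difference between the classes was not tested, since the members were chosen with results of these data known.

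**Figure D2:**
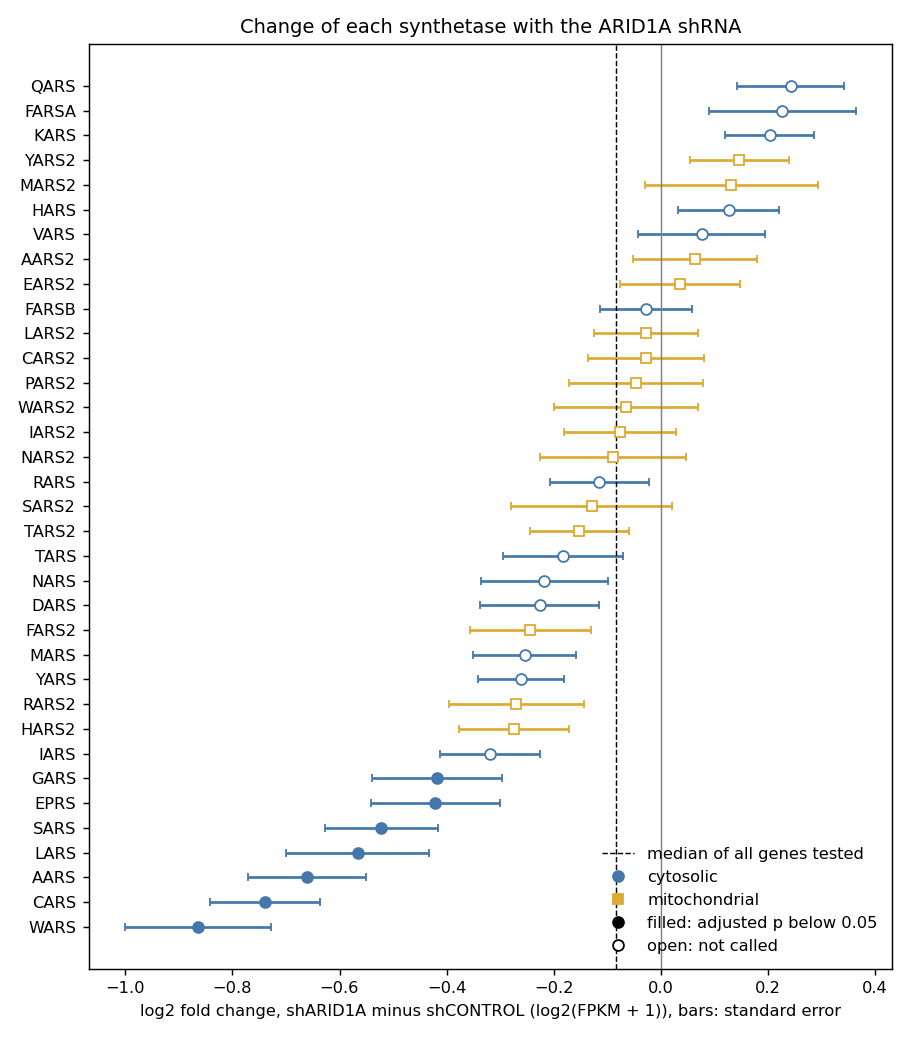
Log2 fold change of the 35 synthetases tested, shARID1A minus shCONTROL on the log2(FPKM + 1) scale, with the standard error as bars (circles: cytosolic; squares: mitochondrial; filled: limma adjusted p below 0.05; dashed line: median of all genes tested). The 7 filled symbols, from WARS at -0.86 to GARS at -0.42, are all cytosolic and all lie below the dashed line, and QARS, FARSA and KARS are the farthest above 0.

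Of the 7 enzymes that fell, WARS, CARS and AARS kept the call in all 17 alternative settings. WARS (gene ID 7453), the tryptophanyl-tRNA synthetase, which is also induced by interferon in human cells, stood at 69.4, 66.1 and 48.3 FPKM across the controls and at 33.0, 33.6 and 31.9 FPKM across the knockdown. The knockdown samples lay close together below all controls, and shCONTROL replicate 3 was the lowest control. Its mean went down from 61.3 ± 11.4 to 32.8 ± 0.882 FPKM (± gives the SD of n = 3 samples here and below; log2 fold change -0.86, standard error 0.136, limma adjusted p = 0.00544). CARS (gene ID 833), the cysteinyl-tRNA synthetase, stood at 27.5, 29.0 and 25.6 FPKM in controls and at 15.6, 14.8 and 17.7 FPKM after knockdown. The groups were separated by a wide gap, with a fall from 27.4 ± 1.68 to 16.0 ± 1.503 FPKM (log2 fold change -0.74, standard error 0.103, limma adjusted p = 0.00327). AARS (gene ID 16), the alanyl-tRNA synthetase, stood at 94.8, 107 and 102 FPKM in controls and at 55.5, 64.8 and 71.5 FPKM in knockdown samples. All knockdown values lay below all controls, and the mean fell by 36.8%, from 101 ± 6.24 to 63.9 ± 8.06 FPKM (log2 fold change -0.66, standard error 0.11, limma adjusted p = 0.00674). Adjusted p-values of these 3 genes over the alternatives reached at most 0.0454.

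LARS and SARS fell, with calls that ended when some libraries were left out. LARS (gene ID 51520), the leucyl-tRNA synthetase, which also senses leucine for mTORC1, stood at 51.6, 57.2 and 55.7 FPKM in controls and at 34.6, 31.4 and 45.2 FPKM after knockdown (log2 fold change -0.57, limma adjusted p = 0.0251). The groups did not overlap, and shARID1A replicate 3 was the nearest to the controls. The LARS call ended without shCONTROL replicate 1, 2 or 3 (limma adjusted p = 0.0676, 0.108 and 0.0703), without shARID1A replicate 1 or 2 (0.0950 and 0.0502) and with no filter on low genes (0.0569). Its log2 fold change without each library in turn stayed between -0.71 and -0.46. SARS (gene ID 6301), the seryl-tRNA synthetase, which also charges the tRNA for selenocysteine with serine, stood at 32.2, 33.2 and 26.7 FPKM in controls and at 20.7, 20.6 and 21.6 FPKM in knockdown samples (log2 fold change -0.52, limma adjusted p = 0.0146). The knockdown values were nearly equal, and shCONTROL replicate 3 was again the lowest control. The SARS call was lost when shCONTROL replicate 1, shCONTROL replicate 2 or shARID1A replicate 1 was left out (limma adjusted p = 0.0722, 0.0873 and 0.0611), with log2 fold changes of -0.48, -0.46 and -0.51. In fits without 1 library the calls over all genes also changed, from 1265 lower to between 356 and 2287.

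EPRS and GARS passed by a small margin and were called in 8 and 7 of the 17 alternatives. EPRS (gene ID 2058), the glutamyl-prolyl-tRNA synthetase, stood at 58.9, 62.2 and 57.8 FPKM in controls and at 44.9, 37.4 and 51.5 FPKM after knockdown (log2 fold change -0.42, limma adjusted p = 0.0470). The controls were tight and the knockdown samples spread out below them. GARS (gene ID 2617), the glycyl-tRNA synthetase of both compartments, stood at 141, 147 and 110.3 FPKM in controls and at 106, 93.7 and 95.6 FPKM in knockdown samples (log2 fold change -0.42, limma adjusted p = 0.0491). Here shCONTROL replicate 3 came near the highest knockdown sample. The EPRS call ended without any library except shARID1A replicate 3, with limma adjusted p of 0.130, 0.176 and 0.0897 without shCONTROL replicates 1, 2 and 3 and 0.123 and 0.0679 without shARID1A replicates 1 and 2. EPRS also missed the threshold with no filter (0.0833), an equal FPKM sum (0.0616), upper quartile scaling (0.0722) and no trend (0.0586). The GARS call ended without any library except shCONTROL replicate 3, with 0.1703 and 0.1989 without shCONTROL replicates 1 and 2 and 0.0894, 0.0979 and 0.0519 without shARID1A replicates 1, 2 and 3. GARS also missed it with a pseudocount of 0.1 (0.0506), no filter (0.0928), upper quartile scaling (0.0919), no trend (0.0641) and robust eBayes (0.0519). With a block for the replicate number, the same 7 enzymes were called, against 23.6% of all genes in that fit (15.5% lower and 8.12% higher).

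IARS, YARS and MARS were lower in every knockdown sample than in any control but missed the threshold. IARS (gene ID 3376), the isoleucyl-tRNA synthetase, stood at 68.5 ± 5.51 and 54.7 ± 2.83 FPKM (log2 fold change -0.32, limma adjusted p = 0.0509). It passed without shCONTROL replicate 3 (0.0483) or shARID1A replicate 3 (0.0233), with voom (0.0420) and after quantile normalization (0.0472). YARS (gene ID 8565), the tyrosyl-tRNA synthetase, stood at 67.8 ± 2.80 and 56.4 ± 0.707 FPKM (log2 fold change -0.26, limma adjusted p = 0.0573). YARS passed without shARID1A replicate 3 (0.0400), with no filter (0.0486) and after quantile normalization (0.0497). MARS (gene ID 4141), the methionyl-tRNA synthetase, stood at 105 ± 5.36 and 88.4 ± 8.60 FPKM (limma adjusted p = 0.105), and passed without shARID1A replicate 2 (0.0369). In RefSeq the MARS gene overlaps DDIT3, which fell from 30.3 ± 4.02 to 14.3 ± 3.14 FPKM (limma adjusted p = 0.00539), and without strand their shared reads cannot be told apart. MARS is among 12 members whose RefSeq span overlaps another gene with deposited values, and the same limit applies to all 12.

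TARS, NARS, DARS and RARS, the threonyl-, asparaginyl-, aspartyl- and arginyl-tRNA synthetases, had log2 fold changes of -0.18, -0.22, -0.23 and -0.11 and were not called (limma adjusted p = 0.289, 0.235, 0.192 and 0.419). In TARS and DARS, as in IARS, YARS and MARS, all knockdown values lay below all controls, as in 25.4% of all genes tested. NARS stood at 76.1, 82.1 and 72.9 FPKM in controls and at 63.1, 58.4 and 78.1 FPKM in knockdown samples. Replicate 3 of the knockdown overlapped the controls, and without it NARS passed (limma adjusted p = 0.0250).

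A further set of cytosolic enzymes had fold changes near 0 or above it. KARS (gene ID 3735), the lysyl-tRNA synthetase of both compartments, stood at 125, 131 and 128 FPKM in controls and at 142, 158 and 142 FPKM after knockdown (log2 fold change 0.20, limma adjusted p = 0.125). QARS (gene ID 5859), the glutaminyl-tRNA synthetase, stood at 34.3, 32.8 and 39.7 FPKM and at 40.2, 44.3 and 42.1 FPKM (log2 fold change 0.24, limma adjusted p = 0.128). In both genes all knockdown values lay above all controls, and neither passed in any of the 17 alternatives. FARSA (gene ID 2193), the catalytic alpha subunit of the phenylalanyl-tRNA synthetase, stood at 58.7, 60.1 and 55.9 FPKM in controls and at 69.4, 82.6 and 55.6 FPKM in knockdown samples (limma adjusted p = 0.280). Its values overlapped through shARID1A replicate 3, and without that library FARSA passed (limma adjusted p = 0.0245). FARSB, its partner subunit, stood at 33.0 ± 1.20 and 32.4 ± 1.46 FPKM. HARS and VARS, the histidyl- and valyl-tRNA synthetases, had log2 fold changes of 0.13 and 0.08 (limma adjusted p = 0.375 and 0.687).

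**Figure D3:**
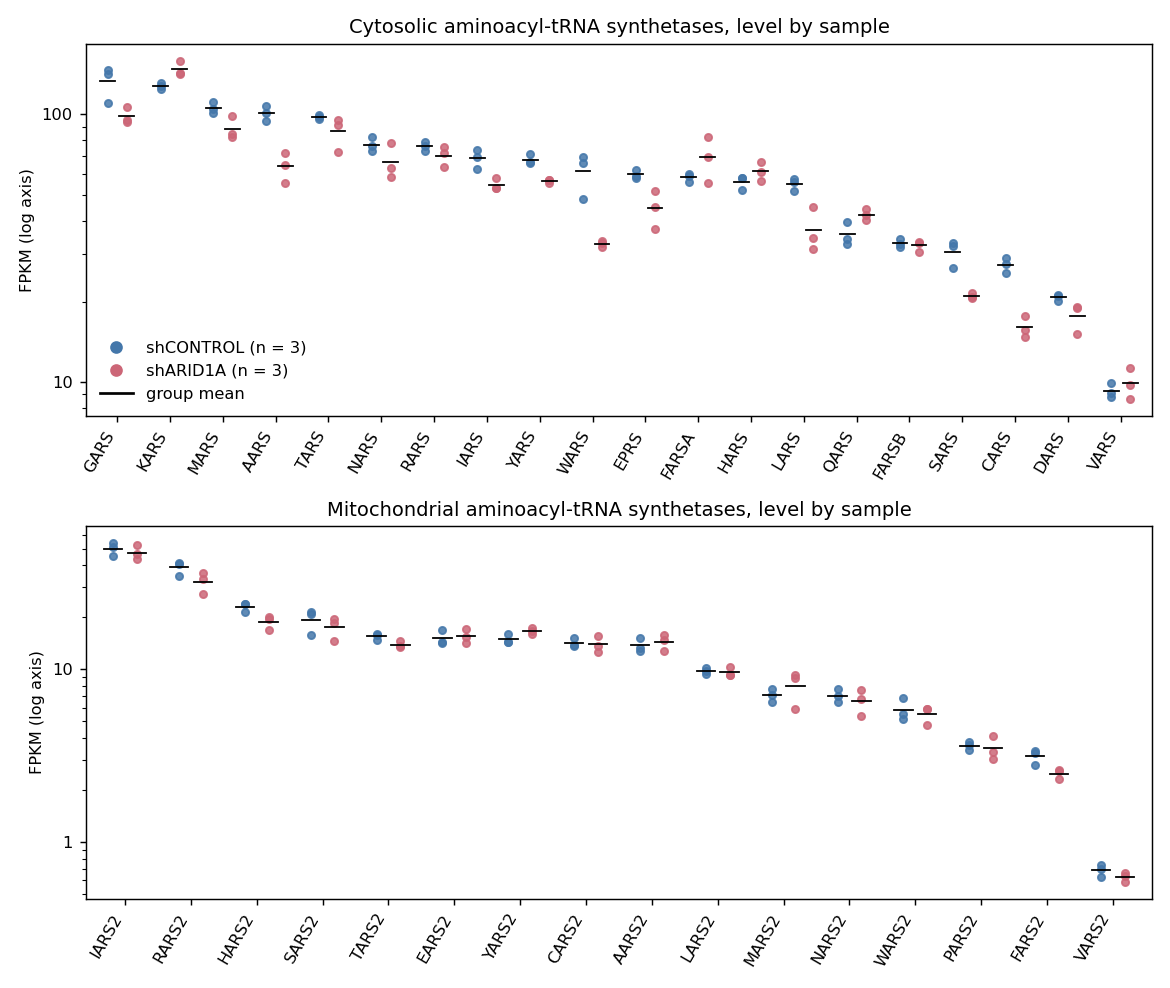
FPKM of each synthetase in each of the 6 samples on a log axis, cytosolic enzymes above and mitochondrial enzymes below, ordered by the control mean (points: samples; black lines: group means; n = 3 per group). The shARID1A points of WARS, CARS, AARS, LARS, SARS, EPRS and GARS lie below all their controls, those of KARS and QARS above, and most mitochondrial enzymes overlap. Those of IARS, YARS, MARS, TARS and DARS, which were not called, also lie below all their controls.

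The order of the cytosolic enzymes by level differed between the groups. With the control shRNA, GARS (133 ± 19.6 FPKM) and KARS (128 ± 3.13 FPKM) led, and their values overlapped, followed by MARS (105 ± 5.36 FPKM), AARS (101 ± 6.24 FPKM) and TARS (97.6 ± 1.72 FPKM), in which AARS overlapped both neighbours. With the ARID1A shRNA, KARS (147 ± 9.44 FPKM) was first, clear of GARS (98.5 ± 6.81 FPKM) in every sample. AARS went from rank 4 to rank 8 of 20 and WARS from rank 10 to rank 15, while FARSA went from rank 12 to rank 6. The cytosolic control means ran from 9.29 FPKM (VARS) to 133 FPKM, with a median of 60.5 FPKM, and the mitochondrial ones from 0.685 FPKM (VARS2) to 50.2 FPKM (IARS2), with a median of 13.99 FPKM.

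Of the 20 cytosolic genes, 13 are listed as targets of ATF4 in general knowledge of the stress response and 7 are not (DARS, HARS, KARS, QARS, RARS, FARSA and FARSB). All 7 enzymes that fell were among the 13, where 0 rose and the median log2 fold change was -0.42. Among the other 7 enzymes 0 were called (limma), 2 had an unadjusted p below 0.05 (KARS and QARS, both higher), 0 were called by voom, and the median was 0.13. Over all genes tested, 10.9% were called lower and 5.85% higher. An unadjusted limma p below 0.05 was found for 3929 of 11599 genes, 1327 of them higher. The split into 13 and 7 was drawn up with results of these data known and is not independent evidence. The summed level of the 13 was 893, 948 and 839 FPKM across the controls and 667, 646 and 717 FPKM across the knockdown, so the groups did not overlap. The summed level of the other 7 was 408, 411 and 403 FPKM in controls and 440.1, 461 and 419.8 FPKM in knockdown samples, which lay slightly above. The ratio of the first sum to the second was 2.08 to 2.31 in controls and 1.40 to 1.71 in knockdown samples.

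Of the promoter matches shown at the start, the 6 cytosolic ones fell within the 13. A match was present in 6 of the 10 windows at hand for these genes and in 0 of the 6 windows of the other cytosolic genes. Matches and calls did not coincide, since of the 7 enzymes that fell 6 had a window and 2 of them (AARS and CARS) a match. The 6 cytosolic genes with a match had log2 fold changes from -0.74 to -0.18, with a median of -0.29. The 10 cytosolic genes whose window held no match ranged from -0.86 (WARS) to 0.24 (QARS), with a median of -0.07. These 10 came from both parts of the split, so the 2 medians do not compare like genes. Within the 13, every window without a match belonged to an enzyme that fell, with a log2 fold change of -0.42 or lower. There, 4 genes with a match were not called (IARS, MARS, NARS and TARS), so the contrast ran the other way.

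By structural family, 3 of 17 class I enzymes tested fell (CARS, LARS and WARS) and 3 of 17 class II enzymes (AARS, GARS and SARS), with 0 higher in either class and medians of -0.08 and -0.15. The matching share over all genes was 10.9% called lower, with 16.8% called in either direction. The counts are small, and no difference from that share was tested. The class I median was 0.0039 after upper quartile scaling. EPRS belongs to both classes and was counted in neither. Of the 8 synthetases of the multi-synthetase complex, 2 fell (EPRS and LARS) and 0 rose, with a median of -0.24, and 0 were called without shCONTROL replicate 1 or 2, without shARID1A replicate 1 or with no filter. The complex held members on both sides of 0, with LARS at -0.57 and QARS at 0.24.

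The mitochondrial enzymes showed smaller differences, from -0.27 to 0.15 on the log2 scale. HARS2 (gene ID 23438), the mitochondrial histidyl-tRNA synthetase, had the lowest limma adjusted p, 0.101, at 23.8, 23.8 and 21.4 FPKM in controls and 20.1, 19.6 and 17.0 FPKM in knockdown samples. FARS2 and TARS2, for phenylalanine and threonine, were also lower in all knockdown samples (3.14 ± 0.297 and 2.49 ± 0.159 FPKM, and 15.5 ± 0.713 and 13.9 ± 0.650 FPKM). YARS2, for tyrosine, was higher in all of them (14.9 ± 0.902 and 16.6 ± 0.603 FPKM). None of these 4 was called by limma. IARS2, the most abundant of the class, stood at 50.2 ± 4.16 and 47.6 ± 4.57 FPKM, and overlapped between the groups. So did RARS2 (39.0 ± 3.78 and 32.3 ± 4.54 FPKM), SARS2 (19.4 ± 3.16 and 17.6 ± 2.63 FPKM) and AARS2, CARS2, EARS2, LARS2, MARS2, NARS2, PARS2 and WARS2, the last 8 with log2 fold changes from -0.09 to 0.13.

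The ratio of the cytosolic to the mitochondrial enzyme for the same amino acid was taken in each sample for 17 pairs, with FARSA and FARSB both set against FARS2, and EPRS against EARS2 and PARS2. The cytosolic member was the more abundant per length in all 17 pairs in controls, with the VARS pair uncertain because of its deposited lengths. The ratio was lower without overlap in 8 pairs, higher without overlap in 3 and overlapping in 6. Ratios of other gene pairs were not taken, so no matching share over all genes stands beside these counts. For single genes, 38.8% of all tested did not overlap. The pairs are not separate either, since EPRS and FARS2 each enter more than once. AARS over AARS2 was 7.42, 8.07 and 6.65 across the controls and 4.33, 4.39 and 4.52 across the knockdown. CARS over CARS2 was 1.998, 2.12 and 1.69 in controls and 1.01, 1.18 and 1.29 in knockdown samples, where the enzymes were close to equal. WARS over WARS2 was 10.1, 11.9 and 9.38 in controls and 5.60, 7.03 and 5.37 in knockdown samples. In these 3 pairs the mitochondrial gene had a log2 fold change of 0.06, -0.03 and -0.06, so the ratio followed the cytosolic gene.

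**Figure D4:**
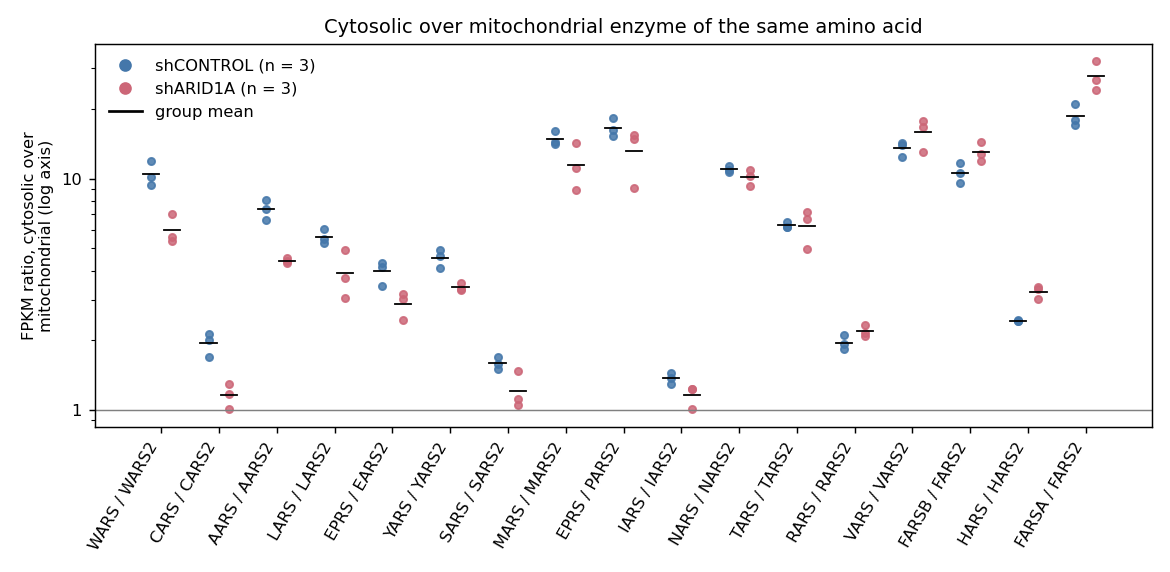
FPKM ratio of the cytosolic over the mitochondrial enzyme of the same amino acid in each sample, on a log axis, for 17 pairs ordered by the change of the group mean (points: samples; black lines: group means; n = 3 per group). Ratios are lower with the ARID1A shRNA for WARS, CARS and AARS at the left, and higher for HARS over HARS2 and FARSA over FARS2 at the right.

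HARS and HARS2 are neighbours that start back to back. HARS over HARS2 was 2.42, 2.42 and 2.45 across the controls and 3.03, 3.39 and 3.33 across the knockdown. The ratio was nearly constant in controls and higher in every knockdown sample, although neither gene was called. They are close paralogs that may share reads, which leaves the level of each uncertain. The RefSeq starts lie 84 bases apart, and the sequence between them is shown because it is the promoter stretch that both genes share, read on the plus strand from HARS towards HARS2. It holds neither motif.
HARS-HARS2 gap, chr5:140691371-140691454, plus strand: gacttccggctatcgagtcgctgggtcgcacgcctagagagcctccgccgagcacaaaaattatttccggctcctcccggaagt

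Over each class the summed levels were as follows. The 20 cytosolic enzymes added up to 1301 ± 58.3 FPKM in controls and 1117 ± 17.2 FPKM after knockdown, and the ranges, 1242 to 1358 and 1107 to 1136 FPKM, did not overlap. The 16 mitochondrial enzymes added up to 242 ± 8.64 and 227 ± 9.48 FPKM, with overlapping ranges of 232 to 248 and 220.4 to 238 FPKM. Cytosolic synthetase transcripts took 0.406% to 0.441% of the assigned reads in controls and 0.351% to 0.365% in knockdown samples. The lowest number of reads behind a value of an enzyme that fell was 1359, for CARS. These are levels in bulk RNA, in which fewer cells with a transcript and less RNA per cell cannot be told apart.

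The 17 partners of tRNA charging include the scaffold proteins of the multi-synthetase complex, the tRNA exporter XPOT and elongation factors. They also include the mitochondrial glutamyl-tRNA amidotransferase, editing enzymes, the selenocysteine pathway and other enzymes that act on tRNA. Of 16 tested, 1 fell and 0 rose (limma), with a median log2 fold change of -0.07, and 3 had an unadjusted p below 0.05, all lower. Over all genes 10.9% were called lower and 3929 of 11599 had an unadjusted p below 0.05, so the share called lower was not above that of all genes. The median of the list was 0.0041 after upper quartile scaling and 0.02 after quantile normalization. The 1 was SEPSECS, which converts phosphoserine on the selenocysteine tRNA, at 1.58, 1.54 and 1.41 FPKM in controls and 0.870, 0.593 and 1.02 FPKM in knockdown samples (log2 fold change -0.46, limma adjusted p = 0.0442). SEPSECS lay near the floor, and its knockdown mean, 0.827 FPKM, was below the 1 FPKM of the filter. It was tested only because its controls were higher, so its call is no evidence about the list. PSTK, the kinase before SEPSECS in that pathway, stood at 2.20 ± 0.116 and 1.51 ± 0.121 FPKM (limma adjusted p = 0.0624). XPOT stood at 93.9 ± 9.27 and 73.1 ± 9.80 FPKM (limma adjusted p = 0.0777), and EEF1A1 at 1973 ± 93.8 and 2227 ± 149.5 FPKM (limma adjusted p = 0.207). The count of lower genes was 0 without each library in turn except shARID1A replicate 3, where it was 2.

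ATF4 and 9 textbook targets outside the synthetases were set beside them. Of these 10 genes 7 fell and 0 rose, with a median log2 fold change of -0.96, against 10.9% of all genes called lower. Among the 7 is DDIT3, which overlaps the MARS gene as stated above. The 3 not called were ATF4, CEBPG and ATF5, and ATF5 had a log2 fold change of 0.25, with 12.4 ± 2.57 and 15.0 ± 3.60 FPKM. ATF4 itself stood at 281, 281 and 215 FPKM in controls and 205, 213 and 190.3 FPKM in knockdown samples, where it was lower but not called (limma adjusted p = 0.0850). ASNS, CHAC1, TRIB3 and PSAT1, for asparagine synthesis, glutathione breakdown, ATF4 feedback and serine synthesis, had log2 fold changes of -1.88, -2.01, -1.37 and -0.87, the last about that of WARS (limma adjusted p from 0.000116 to 0.00505). TRIB3 stood at 50.1, 57.0 and 38.1 FPKM in controls and at 18.8, 19.2 and 15.9 FPKM in knockdown samples. The lowest control of TRIB3, CHAC1 and ATF4 was shCONTROL replicate 3, as in WARS, SARS and GARS. In ASNS, AARS and LARS the lowest control was shCONTROL replicate 1. No share over all genes stands beside this order of the controls, and a link between these genes was not tested.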

How the data were processed

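The authors deposited 1 table of FPKM values, 1 column per sample, with gene lengths. HISAT2 2.0.5 and featureCounts 1.5.0-p1 are named per the submitters' processing notes. Strandedness and build were not given in the sources used here. Of 19814 gene rows, 19421 share a scale on which FPKM times length steps by whole reads, for 100% of values (tolerance 0.01). The other 393 rows, with no member among them, were left out. FPKM values are not counts, so limma 3.58.1 (R 4.3.3, eBayes with trend, two-sided) was fitted on log2(FPKM + 1) for the 11599 genes whose mean reached 1 FPKM. Benjamini-Hochberg adjustment was used with a threshold of 0.05. The fit was also run on simulated reads, drawn with a fixed spread and with equal expected proportions in all samples of a group. That run checked the code and does not bear on how sure the calls in these data are. Voom on the recovered reads was an alternative. The others were pseudocounts of 0.1 and 5, no filter, a minimum of 5 FPKM, an equal FPKM sum, upper quartile scaling, quantile normalization, no trend, robust eBayes, the replicate block and leaving out each sample, 17 in all.

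Samples with equal replicate numbers deviated together from their group means (correlations over genes: 0.321 for number 1, 0.187 for 2, 0.315 for 3, each above 0.1), so the numbers may pair the samples. This comes from the data, not the labels. Within groups, chi-square over its degrees of freedom was at least 5.38 for any sample pair, so none was a duplicate. Named genes are ARID1A, all members, and the 4 with the smallest p among the charging partners and among ATF4 and its targets. Others (ATF4, ATF5, CEBPG, DDIT3, TP63, KRT5, KRT14, LUM, COL1A1, CD68) were named after their values were seen. The members and lists were chosen with earlier results of these data known. RefSeq names matched all 36 members. Tables and figures were made in Python 3.11.15 with pandas 2.3.3, matplotlib 3.10.9 and numpy 2.4.6.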

Additional observations from a re-analysis of the deposited data

How the results depend on the processing

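The direction of the 7 enzymes that fell was the same in all 17 alternatives, and 0 mitochondrial enzymes were called in any. The number of lower cytosolic enzymes was 5 with no filter, no trend or upper quartile scaling, and 8 with voom. Leaving out each library gave 3 to 9 lower and 0 to 1 higher among the cytosolic enzymes, 3 to 9 lower among the 13 ATF4-linked, 0 to 1 higher among the other 7, 2 to 5 lower in class I, 1 to 3 lower and 0 to 1 higher in class II, 0 to 3 lower in the multi-synthetase complex, 0 to 2 lower and 0 to 1 higher among the charging partners, and 356 to 2287 lower and 231 to 1116 higher over all genes. The value of 3 came without shCONTROL replicate 1 or 2 or shARID1A replicate 1, that of 9 without shARID1A replicate 3 or after quantile normalization. In the complex 1 fell with an equal FPKM sum, upper quartile scaling or no trend, and 0 with no filter. In class I 5 fell after quantile normalization. Of the charging partners 2 fell with no trend and 0 with a pseudocount of 0.1, no filter, a minimum of 5 FPKM, an equal FPKM sum, upper quartile scaling or quantile normalization. Over all genes 820 fell with a minimum of 5 FPKM and 831 after quantile normalization. The share of higher genes among all calls was 34.9%, and 50.6% and 53.3% after upper quartile scaling and quantile normalization. The causes were not tested. The replicate block ended no call among the members and added none, and over all genes 942 rose and 1798 fell with it.

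Small differences turned sign. The log2 fold change of FARSB was 0.0524 and 0.00457 after upper quartile scaling and quantile normalization, that of CARS2 0.0483 and 0.0435, of LARS2 0.047 and 0.0661, of PARS2 0.0175 and 0.117, and of WARS2 0.0044 and 0.0668. IARS2 turned to 0.00387 after upper quartile scaling and NARS2 to 0.0359 after quantile normalization. Leaving out each library gave -0.0131 to 0.162 for VARS, -0.0482 to 0.00988 for FARSB, -0.104 to 0.0401 for CARS2, -0.032 to 0.109 for EARS2, -0.188 to 0.0332 for NARS2, -0.144 to 0.0297 for PARS2 and -0.138 to 0.0382 for WARS2. With 3 samples per group, the differences of the mitochondrial enzymes lay within 3 standard errors of 0.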
